A study of Mus musculus with 6 samples.

Results

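Cardiac fibroblasts and tail tip fibroblasts of the mouse were compared across all genes, to describe how far the surface, the secretions, the metabolism and the gene regulation of fibroblasts from the heart and from the tip of the tail lay apart in culture. The comparison used 1 library of each origin under each of 2 adenoviruses, which makes 4 of the 6 libraries of the series. Ad-GFP is an adenovirus that carries green fluorescent protein and was the control. Ad-Cre is an adenovirus that carries Cre recombinase, an enzyme that cuts DNA out between its recognition sites, and is labelled as the GATA4 knockout. All libraries came from cells grown in DMEM with 10% fetal bovine serum and taken 48 h after transduction, and polyadenylated RNA was sequenced. The genotype was labelled WT for every library, and the labels name no floxed allele. The labels state neither strain, age and sex nor the number of animals behind a culture. Each combination of origin and virus was 1 library, so the 2 libraries of an origin served as its replicates with virus as a covariate. Nothing says that they came from separate animals, and p-values measure only the spread between these libraries. The other 2 libraries, from lung fibroblasts under the same viruses, entered the fit for a shared estimate of the spread.

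Fibroblasts lay down and remodel the extracellular matrix, and they keep part of the positional identity of their tissue of origin when they are grown in culture. Those of the heart descend mainly from the epicardium and carry transcription factors of heart development. Those of the tail tip come from the dermis, tendon sheaths and other connective tissue at the posterior end of the body, where Hox genes from the ends of the clusters are known to be active.

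Levels are normalised counts in CPM, which are reads scaled to a library of 1 megaread after TMM normalisation, and each pair of values gives the Ad-GFP library first and the Ad-Cre library second. The 4 libraries held between 30034441 and 33779069 reads, and 3 reads, the upper limit behind a count of 0, are worth between 0.0905 and 0.0981 CPM. Gata4 was at 146 and 149 CPM in the cardiac libraries and at 0.0314 and 0.0604 CPM in the tail tip libraries, so its level did not separate the Ad-Cre from the Ad-GFP library of the heart. The count covers the whole gene and the labels do not name a deleted part, so it does not check the knockout. All 8 cardiac fibroblast markers passed the test in the labelled direction. Of 12 tail tip markers 9 were tested, and 7 of these passed in the labelled direction. The other tested ones were Twist2 (adjusted p = 0.28) and Prrx1 (0.06, and under 0.05 in 6 of 12 alternatives), factors common to mesenchyme. The log2 fold change of Prrx1 was -0.55, and -0.83 without cardiac Ad-GFP. The untested markers had few reads: Hoxd10 0 and 0 in the cardiac against 0 and 1 in the tail tip libraries, Hoxd13 5 and 38 against 1 and 1, and Dpp4 8 and 14 against 8 and 6. Of 12 tested fibroblast markers 1 was higher in cardiac cells and 4, among them Dcn, in the tail tip. The called share was 41.7%, against 33.5% of all genes. The fibroblast genes Col1a1 and Fn1 were high in both origins. Col1a1 was at 8635 and 6048 CPM in the cardiac and at 7206 and 6568 CPM in the tail tip libraries (log2 fold change 0.09 ± 0.26 SE, adjusted p = 0.82; 0.44, adjusted p = 0.018, without cardiac Ad-Cre), and Fn1 was at 9854 and 9117 against 8457 and 8362 CPM. Markers of other cell types were detected in both. The 29 tested markers of macrophages and leukocytes summed to 1311 and 814 CPM in the cardiac and to 6813 and 5746 CPM in the tail tip libraries, against 32.3 and 23.8 CPM in the lung libraries. Of these 29 (35 in the table), 26 were higher in the tail tip and none in the cardiac libraries (1 without cardiac Ad-Cre or tail tip Ad-Cre), while the B cell marker Ms4a1 had 0 reads everywhere and Cd3e and Nkg7 had at most 5. The 12 tested tendon and joint markers summed to 607 and 405 CPM in the cardiac and to 8036 and 7768 CPM in the tail tip libraries. Of these 12 markers 8 were higher in the tail tip and 3 in cardiac cells. The 15 tested endothelial markers summed to 1097 and 973 CPM against 101 and 97.0 CPM, of which Ptprb, Eng and Flt1 made up 477, 360 and 235 CPM in cardiac Ad-GFP. Of these 15 markers 8 were higher in cardiac and 2, Vwf and Kdr, in tail tip fibroblasts (Kdr was not called without tail tip Ad-GFP, adjusted p = 0.53). Pecam1 and Cdh5 were low but higher in cardiac than in tail tip fibroblasts. Pecam1 was at 2.58 and 2.06 CPM in the cardiac libraries (log2 fold change 2.42, adjusted p = 0.03). Cdh5 was at 2.43 and 1.47 CPM there (3.07, adjusted p = 0.0059), and Cldn5 had 0 reads in the libraries of both origins. The 12 tested epithelial markers summed to 140 and 252 CPM against 8.55 and 9.39 CPM. In bulk RNA fewer cells of a type and less RNA per cell cannot be told apart.

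Of 18143 genes that passed the filter on low counts, 6077 (33.5%) differed between the origins at an adjusted p under 0.05 in edgeR's quasi-likelihood test. Of these 2816 (15.5%) were higher in cardiac and 3261 (18.0%) were higher in tail tip fibroblasts. A difference of at least 4-fold was called for 791 genes higher in cardiac (4.36%) and for 1477 higher in tail tip fibroblasts (8.14%). The ranges of the 2 origins did not overlap for 12813 genes (70.6%), which includes 6073 of the called ones. In every gene named here as higher in 1 origin, both libraries of that origin lay above both libraries of the other. Under each virus taken alone, 1713 genes were at least 2-fold higher in the cardiac library and 2751 at least 2-fold higher in the tail tip library, and 257 genes moved at least 2-fold in opposite directions. The count of calls rested on which libraries were fitted. It was 9079 without cardiac Ad-GFP, 9205 without cardiac Ad-Cre, 3110 without tail tip Ad-GFP and 3338 without tail tip Ad-Cre, and no gene called there and in the full fit changed its direction.

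**Figure D1:**
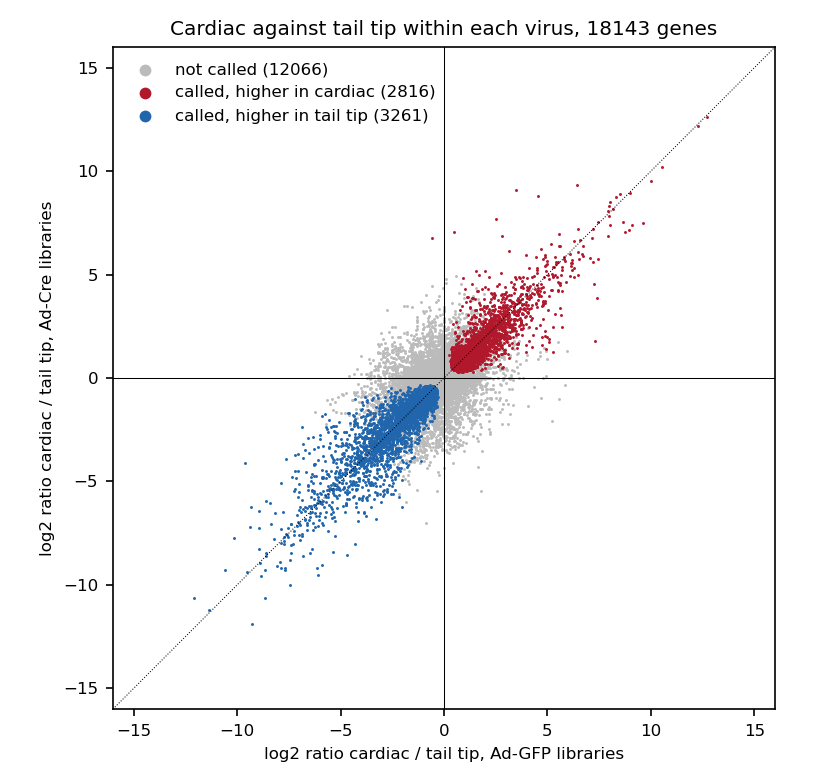
Each point is 1 of 18143 tested genes, with its log2 ratio of cardiac over tail tip level in the Ad-GFP libraries on the x axis and in the Ad-Cre libraries on the y axis (prior count 2). The 2816 genes called higher in cardiac are red, the 3261 called higher in tail tip are blue, and most called genes lie along the dotted diagonal of equal ratios.

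The largest differences were between high counts in 1 origin and a few reads in the other. Tbx20, a T-box factor of heart development, had 33924 reads in the cardiac libraries and 1 read in the tail tip libraries, a ratio of 34900 (exact conditional binomial 95% interval 6263 to 1379000, counting error only). Ptprb, a receptor phosphatase best known from endothelium, had 24913 reads against 1 (25630, 4600 to 1012000). These 2 genes and Gata4 (9330 reads against 3) stood at 0 to 3 reads in the tail tip. Clca3a1 was at 269 and 227 against 0.471 and 0.392 CPM (log2 fold change 9.15 ± 0.22, adjusted p = 1.2e-05), and Esm1, which encodes the secreted proteoglycan endocan, was at 199 and 222 against 0.566 and 0.453 CPM. On the other side Thbs4, a thrombospondin of tendon and muscle attachment, had 0 reads in the cardiac libraries and 5185 and 4732 CPM in the tail tip libraries, at least 104248-fold higher. Its adjusted p of 0.00012 became 0.17 without the cardiac Ad-GFP library. Prg4, which encodes the joint lubricant lubricin, was at 0.676 and 0.883 against 1943 and 2255 CPM (-11.39 ± 0.51, adjusted p = 2.4e-05). Abi3bp, an extracellular matrix protein, was at 0.154 and 0.556 against 937 and 990 CPM, and Cilp, a cartilage matrix protein, at 0.246 and 0.556 against 474 and 389 CPM. The 2 origins were far apart in each of these genes and their libraries did not overlap.

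Gene lists were drawn up for 4 classes. Surface genes numbered 825 tested of 1188 in the table, of which 136 were higher in cardiac and 263 in tail tip fibroblasts. Of 431 tested secreted genes (592 in the table) 94 were higher in cardiac and 190 in tail tip fibroblasts. Of 546 metabolic genes (661) the counts were 99 and 123, and of 625 regulatory genes (791) they were 158 and 170. The called share was thus 65.9% for secreted, 52.5% for regulatory, 48.4% for surface and 40.7% for metabolic genes, against 33.5% of all tested genes. The median absolute log2 fold change was 1.82 for secreted, 1.06 for surface, 0.88 for regulatory and 0.56 for metabolic genes, against 0.67 over all tested genes. The signed median was -0.89 for secreted genes and -0.06 over all tested genes. A member that passed the filter only through the origin where it is high had to differ, so these shares describe the tested members and not the whole lists. Without the tail tip Ad-GFP or the tail tip Ad-Cre library the surface genes higher in cardiac numbered 79 and 78, the metabolic genes higher in cardiac 48 and 61, and the metabolic genes higher in tail tip 73 and 78.

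**Figure D2:**
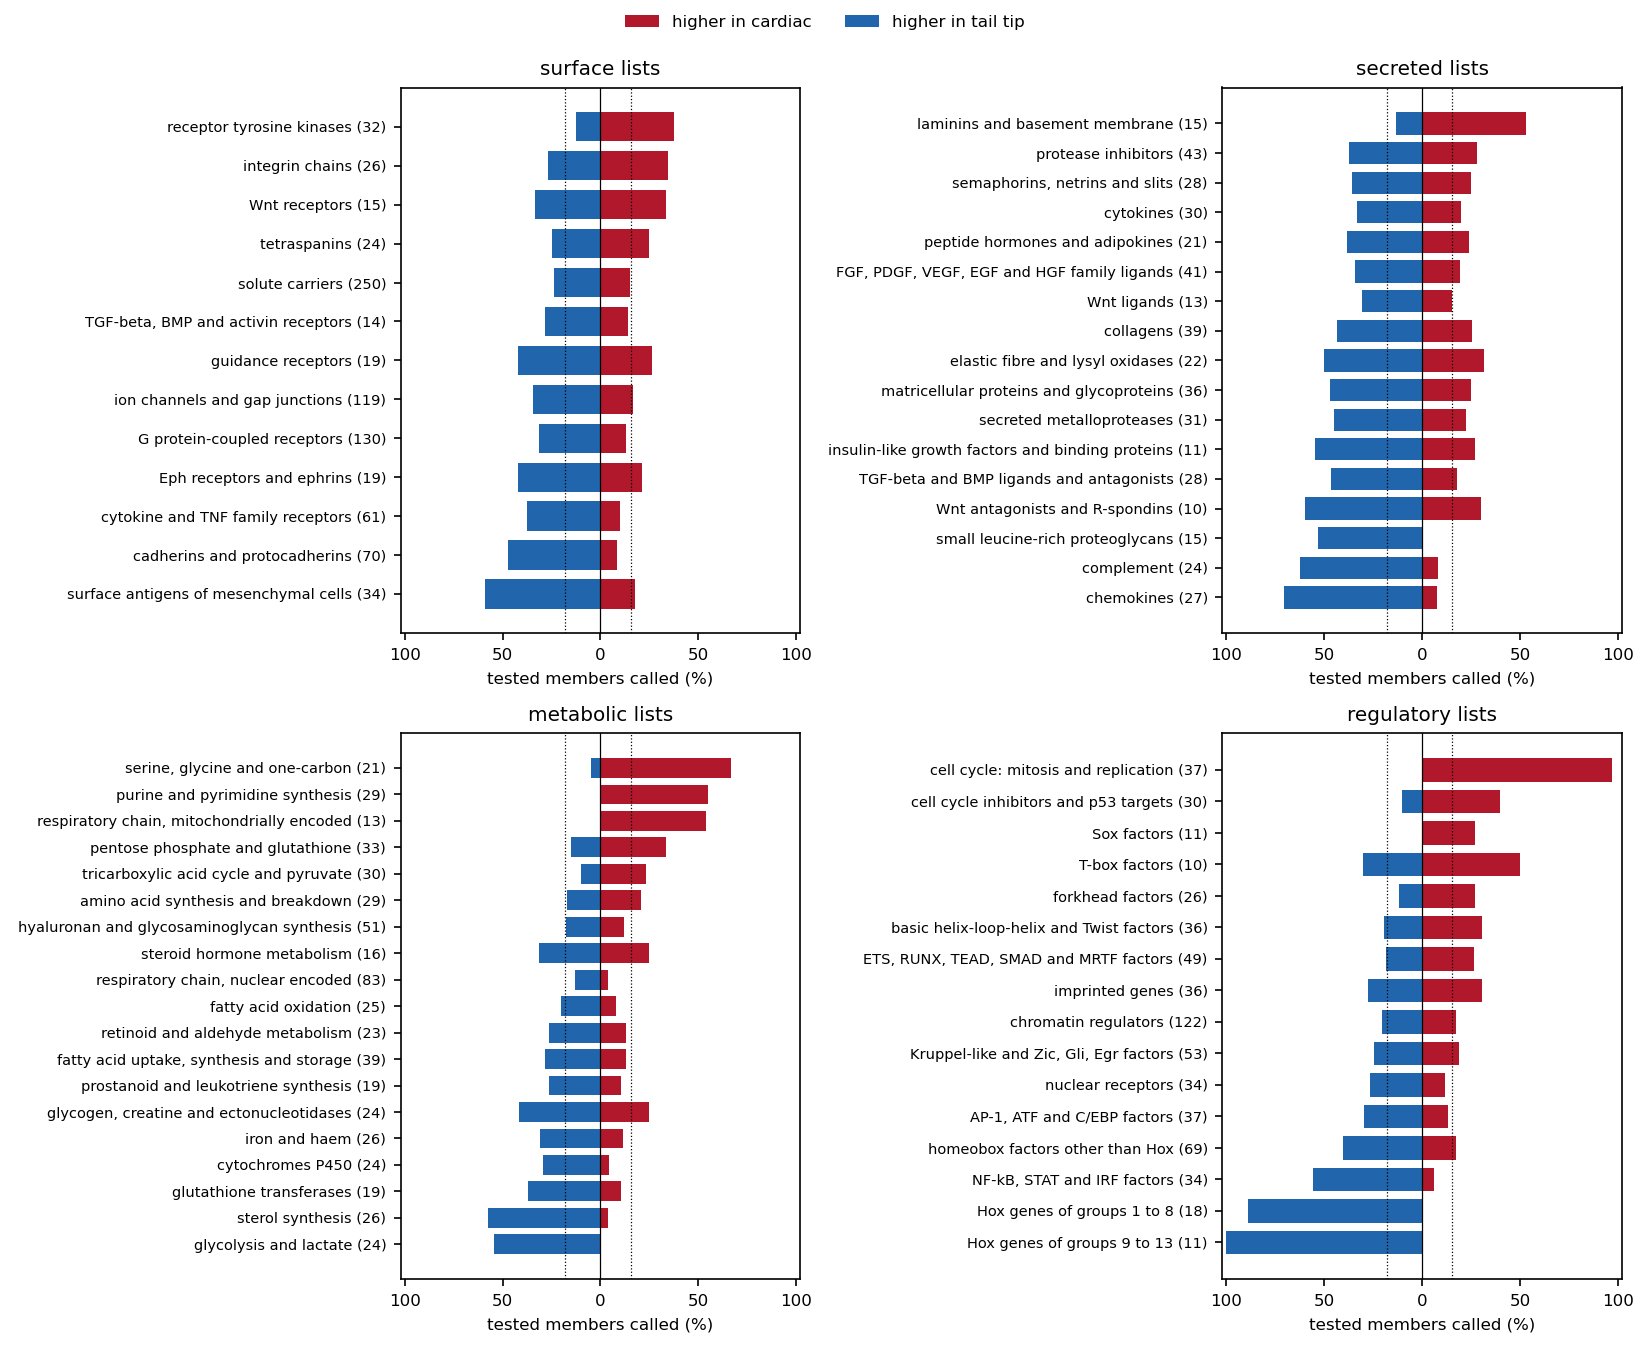
Bars give the percentage of tested members of each list with at least 10 such members that were called higher in cardiac (red, to the right) or in tail tip fibroblasts (blue, to the left), with the number of tested members in brackets. The dotted lines mark the share over all 18143 tested genes, 15.5% to the right and 18.0% to the left; the cell cycle, Hox, chemokine, small leucine-rich proteoglycan, laminin, nucleotide and one-carbon lists are among those far from them.

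On the surface, cell adhesion differed by family. Integrins are the paired receptors that bind cells to matrix, and 9 of 26 chains were higher in cardiac and 7 in tail tip fibroblasts. Itga6 and Itga7, chains of laminin receptors, were both higher in the cardiac libraries. Itga6 was at 147 and 187 against 19.3 and 20.3 CPM (log2 fold change 3.07 ± 0.16, adjusted p = 3.4e-05), and Itga7 at 29.3 and 42.8 against 4.37 and 4.77 CPM (2.94 ± 0.28). The leukocyte chains Itgb2 and Itgal were higher in the tail tip, as the macrophage markers were. Itgb2 was at 33.8 and 22.1 against 243 and 194 CPM (-2.97 ± 0.32), and Itgal at 13.6 and 9.52 against 85.7 and 66.3 CPM. The main fibronectin receptor chain Itga5 was at 909 and 877 against 850 and 816 CPM and did not pass the test (0.10 ± 0.15, adjusted p = 0.64). Itga3 differed between the 2 cardiac libraries, at 36.8 CPM under Ad-GFP and 235 CPM under Ad-Cre, and both lay above the 4.05 and 3.23 CPM of the tail tip (4.49 ± 0.77, adjusted p = 0.0046). Without cardiac Ad-GFP its log2 fold change was 5.14 (adjusted p = 0.36), without either lung library 4.65 (adjusted p = 0.32), without tail tip Ad-GFP 6.23 and without tail tip Ad-Cre 3.06.

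Cadherins and protocadherins, which hold cells to each other, leaned to the tail tip with 33 of 70 tested members higher there and 6 higher in cardiac cells (median log2 fold change -1.09). Cdh18 was at 1.26 and 1.01 against 31.9 and 40.6 CPM (-4.96 ± 0.35, adjusted p = 8.8e-05). Most of the 33 belonged to the clustered protocadherins, whose alpha and gamma members share 3′ exons, so their counts are uncertain. Pcdh1, which lies outside those clusters, was at 110 and 123 against 6.82 and 8.33 CPM (3.96 ± 0.25), and Pcdh9 was at 53.3 and 45.5 against 4.53 and 4.80 CPM. Among heparan sulfate proteoglycans of the surface, Gpc1 was higher in the tail tip at 54.4 and 44.6 against 540 and 454 CPM (-3.33 ± 0.18), and Gpc3 was higher in cardiac cells at 6.91 and 7.98 against 0.377 and 0.423 CPM. Ephs and ephrins signal between touching cells. Epha2 was higher in cardiac cells (280 and 427 against 50.2 and 56.9 CPM), while Epha3 was higher in the tail tip (0.461 and 0.785 against 64.9 and 63.0 CPM, -6.68 ± 0.31). The count of integrins higher in cardiac cells was 4 and that of cadherins higher in the tail tip was 16 without tail tip Ad-Cre.

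Receptors for growth factors leaned to the heart and receptors for cytokines to the tail tip. Of 32 tested receptor tyrosine kinases 12 were higher in cardiac and 4 in tail tip fibroblasts. Flt1, a receptor for vascular endothelial growth factor, was at 235 and 231 against 5.97 and 5.61 CPM (5.33 ± 0.17, adjusted p = 1.3e-05). Ror1, which binds Wnt5a, was at 32.6 and 26 against 1.48 and 1.24 CPM, and Mertk, a receptor for the uptake of dying cells, at 100 and 93.7 against 7.70 and 5.92 CPM. The pseudokinase Ptk7, a Wnt co-receptor, did not pass the test (220 and 209 against 254 and 248 CPM, adjusted p = 0.28). Csf1r, the receptor that macrophages need to survive, was at 50.4 and 42.7 against 234 and 187 CPM. Of 61 cytokine and TNF family receptors 23 were higher in the tail tip and 6 in cardiac cells. Il1rl1, the receptor for interleukin 33, was at 1.75 and 2.29 against 707 and 837 CPM (-8.58 ± 0.36, adjusted p = 2.3e-05), and it was high in the lung libraries too, at 1402 and 851 CPM. Tnfrsf1b was at 17.0 and 16.6 against 231 and 201 CPM (-3.69 ± 0.17). Without cardiac Ad-GFP 10 cytokine receptors were higher in cardiac cells, and without tail tip Ad-GFP or tail tip Ad-Cre 14 were higher in the tail tip. Only 1 receptor tyrosine kinase was higher in the tail tip without tail tip Ad-GFP.

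Receptors for TGF-beta and Wnt ligands were split between the origins. Eng, a TGF-beta co-receptor of endothelium and activated fibroblasts, was at 360 and 396 against 60.2 and 59.4 CPM (2.66 ± 0.15, adjusted p = 4.3e-05). The co-receptor Tgfbr3 was at 12.4 and 24.9 against 234 and 249 CPM (-3.74 ± 0.28), and the type II receptor Tgfbr2 at 91.4 and 121 against 266 and 265 CPM (-1.34 ± 0.16). Eng was thus higher in the heart and both of the other receptors in the tail tip. Among Wnt receptors Fzd6 was at 32.1 and 21.9 against 0.409 and 0.664 CPM (5.62 ± 0.36) and Fzd4 at 17.5 and 14 against 1.89 and 2.23 CPM. The R-spondin receptor Lgr4 was at 20.3 and 20.2 against 250 and 254 CPM (-3.63 ± 0.20), and Fzd1 at 33.6 and 18.8 against 183 and 149 CPM. Each Frizzled named was higher in 1 origin in both libraries.

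G protein-coupled receptors counted 41 higher in the tail tip and 17 in cardiac cells of 130 tested (220 in the table). F2r, the thrombin receptor, was at 860 and 792 against 100 and 113 CPM (2.94 ± 0.20, adjusted p = 7.6e-05), and Gpr39, a zinc-sensing receptor, at 70.4 and 57.4 against 1.76 and 1.87 CPM. Ptgfr, the receptor for prostaglandin F, had 2554 reads in the tail tip against 1 in the cardiac libraries (a ratio of 2483, 445.2 to 98090). Agtr2, an angiotensin receptor, had 0 reads in the cardiac libraries and 6.38 and 10.8 CPM in the tail tip, at least 181.4-fold higher, and the serotonin receptor Htr7 was at 0.184 and 0.0654 against 28.9 and 26 CPM. Of 119 tested ion channels and gap junction genes 41 were higher in the tail tip and 20 in cardiac cells. Scn7a, a sodium channel, was at 0.246 and 0.0327 against 53.7 and 43.1 CPM, while the scramblase and channel Ano6 did not pass the test (163 and 186 against 200 and 206 CPM, adjusted p = 0.26). Among 250 solute carriers 59 were higher in the tail tip and 38 in cardiac cells, a called share of 38.8% near that of all genes. Slc5a7, a choline transporter of nerve endings, had 2397 reads in the tail tip against 3 (776.7, 265.4 to 3769), and Slc43a3 was at 84.9 and 92.4 against 17.5 and 17.1 CPM. Without tail tip Ad-GFP or tail tip Ad-Cre the G protein-coupled receptors higher in cardiac cells numbered 7 and 9 and the solute carriers 16 and 15, and 23 channels were higher in the tail tip without tail tip Ad-GFP.

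Surface antigens used to sort mesenchymal cells counted 20 of 34 higher in the tail tip and 6 in cardiac cells. Mcam (CD146), an antigen of vessel wall cells, was at 145 and 185 against 0.911 and 1.21 CPM (7.28 ± 0.20, adjusted p = 1.2e-05). Cd200 was at 182 and 124 against 12.9 and 12.3 CPM (3.59 ± 0.23). Ly6a, which encodes Sca-1, was at 0.399 and 3.37 against 228 and 290 CPM (-7.24 ± 0.68, adjusted p = 0.0003; -6.35 without cardiac Ad-GFP and -9.26 without cardiac Ad-Cre), and its adjusted p was 0.14 and 0.15 without lung Ad-GFP and lung Ad-Cre. Ly6c1 was at 0.0921 and 0.229 against 17.8 and 23.4 CPM, and F3, which encodes tissue factor, at 20.3 and 16.1 against 249 and 251 CPM (-3.79 ± 0.17). Tetraspanins, which organise the membrane, counted 6 in each direction of 24. Tspan2 was at 48.6 and 57.8 against 2.11 and 3.14 CPM (4.36 ± 0.21), and the leukocyte tetraspanin Cd37 at 3.50 and 1.93 against 36.8 and 25.1 CPM.

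The matrix differed by layer. Laminins and other proteins of the basement membrane, the sheet that underlies epithelium and wraps vessels and muscle, counted 8 of 15 higher in cardiac and 2 in tail tip fibroblasts (median log2 fold change 1.33). Lama5 was at 76.0 and 126 against 2.45 and 2.78 CPM (5.23 ± 0.24, adjusted p = 2.6e-05), and Lama2, the laminin chain of muscle, at 177 and 119 against 32.6 and 37.3 CPM (2.07 ± 0.21). The ubiquitous chains Lamb1 (948 and 797 against 263 and 293 CPM) and Lamc1 (780 and 779 against 262 and 256 CPM) were also higher in the cardiac libraries. Col4a1, the network collagen of basement membranes, was at 7769 and 4952 against 572 and 585 CPM (3.45 ± 0.28, adjusted p = 0.00015), and Col4a2 at 4249 and 2621 against 480 and 469 CPM. Col15a1, a collagen that binds basement membranes to the stroma, was at 405 and 195 against 29.0 and 22.5 CPM (3.46 ± 0.22). The cardiac libraries lay above both tail tip libraries in all of these genes. Lamb2 (184 and 128 against 441 and 450 CPM, -1.52 ± 0.23) and Agrn (78.8 and 70.2 against 185 and 177 CPM, -1.28 ± 0.15) went the other way. Endothelial and epithelial markers moved with the group. Of 15 tested endothelial markers 8 were higher in cardiac cells and 2 in the tail tip, with sums of 1097 and 973 against 101 and 97.0 CPM. Of 12 epithelial markers 8 were higher in cardiac cells and none in the tail tip, with sums of 140 and 252 against 8.55 and 9.39 CPM. Smooth muscle and pericyte markers were divided, with 7 of 18 higher in cardiac cells and 3 in the tail tip (median log2 fold change 0.13). They summed to 3762 and 3178 against 1843 and 1911 CPM. There were 5 endothelial markers higher in cardiac cells without tail tip Ad-GFP and 4 without the Ad-Cre library of the tail tip, and 5 epithelial ones without either lung library. Their part in the difference was not tested.

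Interstitial matrix was higher in the tail tip in several families. Of 39 tested collagens 17 were higher there and 10 in cardiac cells (median -1.02). The 3 chains of collagen VI, the beaded-filament collagen, were higher in the tail tip: Col6a1 at 275 and 287 against 2824 and 2492 CPM (-3.24 ± 0.17, adjusted p = 3.3e-05), Col6a2 at 194 and 138 against 2499 and 2142 CPM, and Col6a3 at 455 and 471 against 1646 and 1562 CPM. Col12a1, a collagen of fibril surfaces that is abundant in tendon and skin, was at 195 and 228 against 1638 and 1553 CPM (-2.92 ± 0.16). Col24a1 had 0 reads in the cardiac libraries and 12.6 and 12.7 CPM in the tail tip, at least 265.7-fold higher. Small leucine-rich proteoglycans, which space collagen fibrils, counted 8 of 15 higher in the tail tip and none in cardiac cells (median -2.5). Fmod was at 3.53 and 3.76 against 183 and 162 CPM (-5.56 ± 0.24), Aspn at 0.983 and 0.589 against 76.2 and 67.2 CPM, and Dcn at 88.5 and 51.0 against 842 and 895 CPM (-3.71 ± 0.25). Bgn was as high in both, at 3805 and 4013 against 4072 and 4123 CPM (-0.07 ± 0.15, adjusted p = 0.76). Lox, which crosslinks collagen and elastin, was at 1455 and 1103 against 7409 and 7390 CPM (-2.55 ± 0.18). Elastin itself was higher in cardiac cells, with Eln at 30.8 and 20.2 against 0.849 and 0.664 CPM (5.05 ± 0.35), as was Mfap4 of the elastic fibre (19.6 and 19.3 against 1.38 and 0.694 CPM). Of 12 tested tendon and joint markers 8 were also higher in the tail tip, and 3 were higher in cardiac cells. Their sums were 8036 and 7768 CPM in the tail tip against 607 and 405 CPM in the cardiac libraries, and their part in the difference was not tested.

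**Figure D3:**
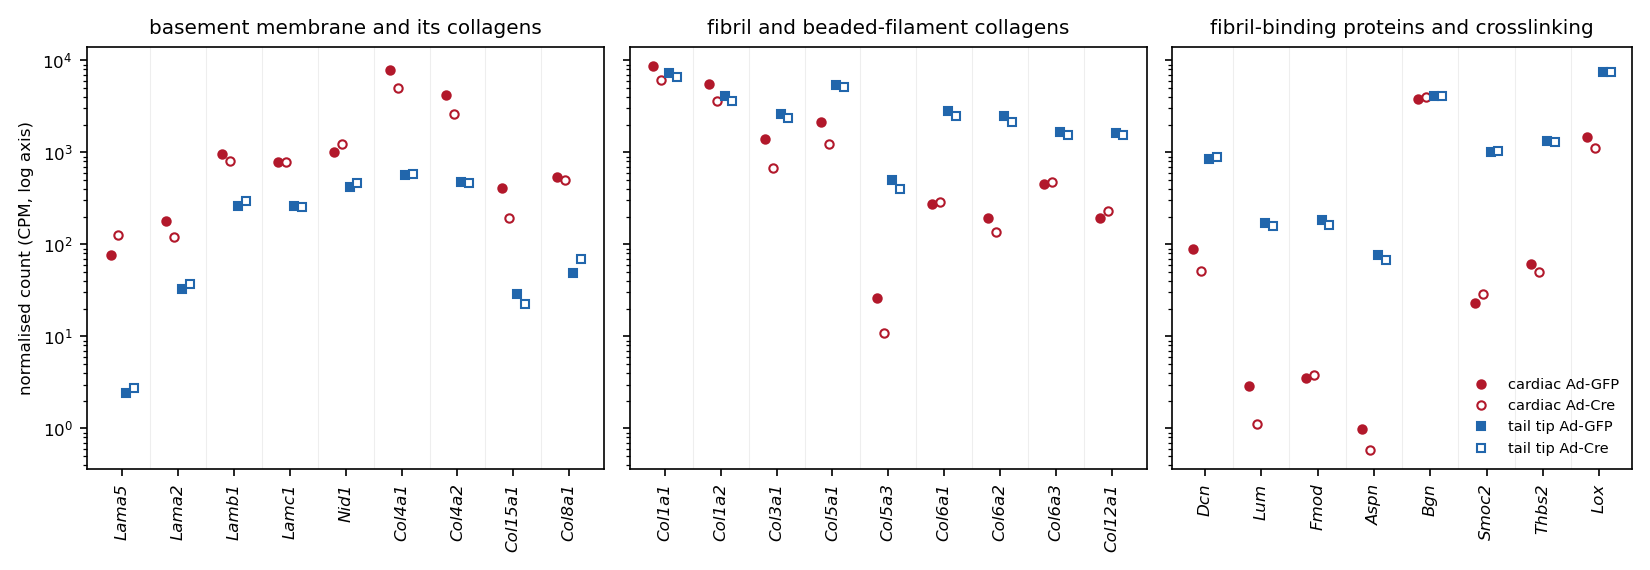
Points give the normalised count (CPM, log axis) of matrix genes in each of the 4 libraries, cardiac in red circles and tail tip in blue squares, filled for Ad-GFP and open for Ad-Cre. Basement membrane genes in the left panel are higher in cardiac libraries, Col1a1 overlaps, and collagen VI, fibril-binding proteins other than Bgn and the crosslinking enzyme Lox are higher in tail tip libraries.

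Among matricellular proteins, which signal from the matrix, 17 of 36 were higher in the tail tip and 9 in cardiac cells. Npnt, a ligand of integrins, was at 205 and 135 against 2.80 and 3.08 CPM (5.81 ± 0.28, adjusted p = 2.8e-05), and Ccn2, a target of mechanical and TGF-beta signals, at 2290 and 1103 against 235 and 224 CPM (2.81 ± 0.26). Smoc2 was at 23.1 and 28.8 against 1003 and 1033 CPM (-5.30 ± 0.27), and Thbs2 at 61.4 and 49.9 against 1344 and 1306 CPM. Of 31 secreted metalloproteases 14 were higher in the tail tip and 7 in cardiac cells. Mmp3 was at 2.27 and 2.22 against 503 and 603 CPM (-7.96 ± 0.38), and Mmp9, which macrophages also make, at 1.97 and 0.916 against 323 and 251 CPM. Cardiac cells were higher in Adamts2, the procollagen N-proteinase, at 196 and 179 against 55.8 and 52.2 CPM (1.79 ± 0.17), and in Adamts9, which cuts proteoglycans, at 33.7 and 34.6 against 8.05 and 8.96 CPM (2.01 ± 0.18). Of 43 tested protease inhibitors 16 were higher in the tail tip and 12 in cardiac cells, and 9 were higher in the tail tip without tail tip Ad-GFP. Serpinf1 was at 54.0 and 37.2 against 1575 and 1552 CPM (-5.12 ± 0.21), and Spink5, an inhibitor known from the epidermis, at 0.215 and 0 against 114 and 105 CPM. Serpinb9b was at 317 and 135 against 6.44 and 5.46 CPM (5.15 ± 0.31).

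Secreted signals of development differed member by member. Of 28 TGF-beta and BMP ligands and antagonists 13 were higher in the tail tip and 5 in cardiac cells. The ligands Gdf6 and Bmp4 were higher in cardiac cells, at 108 and 82.6 against 0.377 and 0.241 CPM (8.26 ± 0.26, adjusted p = 2.3e-05) and at 17.9 and 26.4 against 0.503 and 0.453 CPM. Among Wnt antagonists and R-spondins 6 of 10 tested were higher in the tail tip and 3 in cardiac cells. Rspo3, a secreted amplifier of Wnt signals, had 0 reads in the cardiac libraries and 31.3 and 32.1 CPM in the tail tip, at least 667.5-fold higher, and Dkk3 was at 8.05 and 5.92 against 295 and 329 CPM (-5.49 ± 0.22). Sfrp1, a Wnt-binding protein, was at 45.1 and 67.3 against 20.6 and 13.8 CPM (1.69 ± 0.28). Wnt5a was at 16 and 20.7 against 63.0 and 63.2 CPM (-1.79 ± 0.17). Wnt7a was nearly all in 1 library, at 0.307 CPM in cardiac Ad-GFP and 13.4 CPM in cardiac Ad-Cre with 0 reads in the tail tip. The TGF-beta and BMP genes higher in cardiac cells numbered 10 without cardiac Ad-Cre, and those higher in the tail tip numbered 7 without tail tip Ad-GFP or tail tip Ad-Cre.

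Growth factors and binding proteins were also divided. Of 41 ligands of the FGF, PDGF, VEGF, EGF, HGF and related families 14 were higher in the tail tip and 8 in cardiac cells. Angpt1, which steadies blood vessels through the receptor Tie2, was at 1.07 and 1.24 against 242 and 267 CPM (-7.78 ± 0.31, adjusted p = 2.1e-05), and the heparin-binding factor Ptn was at 19.7 and 15.8 against 595 and 533 CPM (-5.0 ± 0.17). Vegfa did not pass the test, at 246 and 180 against 198 and 174 CPM (adjusted p = 0.37). Of 11 tested members of the insulin-like growth factor axis 6 were higher in the tail tip and 3 in cardiac cells. The binding proteins Igfbp5 and Igfbp3 were at 5.56 and 5.2 against 180 and 139 CPM (-4.88 ± 0.18) and at 6.39 and 7.69 against 145 and 126 CPM, while Igfbp2 was at 31.3 and 16.4 against 1.16 and 0.634 CPM (4.72 ± 0.30). Repellents and attractants of axons went both ways, with Sema3e at 49.0 and 34.8 against 0.943 and 1.48 CPM (5.10 ± 0.31) and Slit3 at 13.1 and 7.62 against 339 and 364 CPM (-5.11 ± 0.26). Among peptide hormones Penk, the enkephalin precursor, was at 0.522 and 0.164 against 120 and 131 CPM, and Npy at 1.81 and 1.77 against 129 and 108 CPM. Edn1, the vasoconstrictor endothelin, was higher in cardiac cells at 17.7 and 11 against 0.880 and 0.664 CPM (4.2 ± 0.44).

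Chemokines and complement leaned to the tail tip, and cytokines were divided. Chemokines, which attract leukocytes, counted 19 of 27 tested (38 in the table) higher in the tail tip and 2 in cardiac cells (median -3.42), and the tested members summed to 492 and 440 CPM in the cardiac and to 2275 and 2477 CPM in the tail tip libraries. Ccl2 was at 48.8 and 83.7 against 746 and 840 CPM (-3.61 ± 0.24, adjusted p = 7.7e-05), and Ccl7 at 14.8 and 22.4 against 445 and 542 CPM. Cxcl9 had 0 reads in the cardiac libraries and 10.9 and 8.51 CPM in the tail tip, at least 203.8-fold higher. The 2 exceptions were Cxcl12, the stromal factor that retains blood cell precursors, at 113 and 78.2 against 9.30 and 8.84 CPM (3.38 ± 0.19), and Ccl17 at 16.1 and 12.5 against 0.157 and 0.272 CPM (6.05 ± 0.49; 5.39 without cardiac Ad-GFP and 6.77 without cardiac Ad-Cre). Of 24 complement genes 15 were higher in the tail tip and 2, among them Cfd, in cardiac cells. C1s1, a protease of the classical pathway, was at 0.676 and 0.393 against 33.0 and 34 CPM (-5.96 ± 0.31). The 30 tested cytokines summed to 3859 and 3595 CPM in the cardiac and to 2309 and 2327 CPM in the tail tip libraries. Of these, 10 were higher in the tail tip and 6 in cardiac cells, among them the receptor antagonist Il1rn (3.29 and 2.06 against 89.3 and 72.7 CPM) in the tail tip and Lif (60.0 and 85.1 against 10.7 and 8.45 CPM) and Tnfsf18 (46.3 and 14.6 against 0.126 and 0.0604 CPM) in cardiac cells. Without tail tip Ad-GFP 6 cytokines were higher in the tail tip, and 1 complement gene was higher in cardiac cells. Macrophage markers moved with these genes, with 26 of 29 tested higher in the tail tip and sums of 6813 and 5746 against 1311 and 814 CPM, and their part in these differences was not tested.

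The interferon response moved as a block. Interferons bind receptors that activate STAT and IRF factors, and these switch on antiviral genes. All 40 of 40 tested interferon response genes were higher in the tail tip (median log2 fold change -4.50), and between 39 and 40 were with any 1 library left out. The sum of the 40 was 1088 and 881 CPM in the cardiac libraries, 7623 and 6970 CPM in the tail tip libraries and 1216 and 1337 CPM in the lung libraries. Every library had received an adenovirus, and the part of the virus in these levels was not tested. Ifit1, which binds viral RNA, was at 4.67 and 2.58 against 380 and 338 CPM (-6.64 ± 0.31, adjusted p = 2.6e-05), and the ubiquitin-like Isg15 at 3.04 and 2.0 against 188 and 142 CPM (-6.04 ± 0.22). The class I chain B2m, which all nucleated cells make, was at 340 and 308 against 974 and 997 CPM (-1.60 ± 0.15). The factors that act on these genes were higher in the tail tip too. Stat2 was at 18.5 and 18.2 against 318 and 297 CPM (-4.07 ± 0.17) and Irf7 at 13 and 5.46 against 236 and 201 CPM (-4.66 ± 0.28). Both factors are also members of the list of 40. Of 34 NF-kB, STAT, IRF and SOCS genes 19 were higher in the tail tip and 2, Socs5 and Socs7, in cardiac cells. Relb was at 14.8 and 12.3 against 41.5 and 34.7 CPM (-1.49 ± 0.19) and the feedback inhibitor Socs3 at 23.6 and 18.4 against 109 and 99.7 CPM. Socs5 and Socs7 were not called without tail tip Ad-GFP (adjusted p = 0.15 and 0.066), Socs5 was not called without tail tip Ad-Cre (adjusted p = 0.08), and 4 genes of the list were higher in cardiac cells without cardiac Ad-GFP. The macrophage markers given above moved in the same direction, and their part was not tested.

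**Figure D4:**
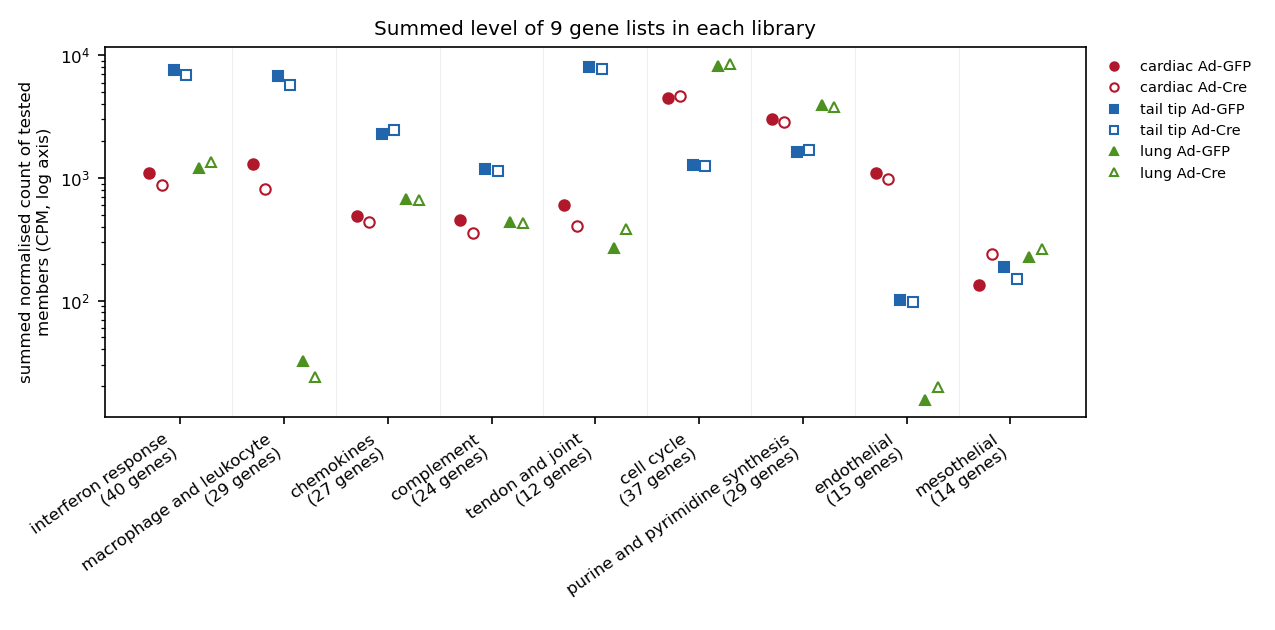
Points give the summed normalised count (CPM, log axis) of the tested members of 9 lists in each of the 6 libraries, by origin (colour and shape) and virus (filled Ad-GFP, open Ad-Cre). The interferon list lies between 6970 and 7623 CPM in the tail tip and between 881 and 1337 CPM in the cardiac and lung libraries, macrophage markers are lowest in lung, and cell cycle and nucleotide lists are lowest in the tail tip.

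The promoters of the 3 interferon response genes with the largest differences that the sequence table holds are shown because the list moved together, and each holds the interferon-stimulated element that STAT and IRF complexes bind. The windows run from 250 bases before to 50 bases after the gene start, 5′ to 3′ on the strand of the gene, from RefSeq on GRCm38.p6, which is an earlier build than the one named for the counts. The motif searched, in capitals, was GAAA, 2 bases of any kind and GAAA again on either strand, and it occurs in 1131 of 32851 promoter windows (3.44%). The Ifit1 window (chr19:34640639-34640938, plus strand) has 2 matches that begin 104 and 85 bases upstream of the start. The Ifit3b window (chr19:34607707-34608006, plus strand) has 2, at 188 and 154 bases, and the Oas3 window (chr5:120777610-120777909, minus strand) has 1, at 75 bases.
Ifit1: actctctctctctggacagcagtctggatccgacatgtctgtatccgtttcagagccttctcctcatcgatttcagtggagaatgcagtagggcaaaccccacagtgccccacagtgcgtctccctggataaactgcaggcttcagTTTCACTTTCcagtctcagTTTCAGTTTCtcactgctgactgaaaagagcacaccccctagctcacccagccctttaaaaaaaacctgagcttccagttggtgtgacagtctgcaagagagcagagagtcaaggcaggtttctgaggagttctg
Ifit3b: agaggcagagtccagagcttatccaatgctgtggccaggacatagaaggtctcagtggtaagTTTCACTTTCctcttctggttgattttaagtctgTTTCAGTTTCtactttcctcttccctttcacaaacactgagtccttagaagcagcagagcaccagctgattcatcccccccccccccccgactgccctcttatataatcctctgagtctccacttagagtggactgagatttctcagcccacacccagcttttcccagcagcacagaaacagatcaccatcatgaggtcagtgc
Oas3: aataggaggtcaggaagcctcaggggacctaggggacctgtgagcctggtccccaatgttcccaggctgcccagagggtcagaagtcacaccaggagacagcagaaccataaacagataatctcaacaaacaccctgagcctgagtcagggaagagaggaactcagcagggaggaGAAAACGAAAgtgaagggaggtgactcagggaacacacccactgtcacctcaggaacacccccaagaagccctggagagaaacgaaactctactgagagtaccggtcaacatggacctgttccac
Ifit3b was at 1.07 and 1.83 CPM in the cardiac and at 132 and 115 CPM in the tail tip libraries, and Oas3, a sensor of double-stranded RNA, at 1.81 and 0.621 against 99.6 and 72.1 CPM. A match describes letters in a window and does not show binding, and these 3 windows give no share for the list.

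Proliferation went the other way. Of 37 genes of mitosis and DNA replication 36 were higher in cardiac cells (median 2.09), and between 32 and 37 were with any 1 library left out. The exception was E2f1, at 53.4 and 46.5 against 38.4 and 39.7 CPM (0.35 ± 0.15, adjusted p = 0.12, and 0.017 without cardiac Ad-Cre). The sum of the 37 was 4526 and 4644 CPM in the cardiac, 1271 and 1255 CPM in the tail tip and 8149 and 8529 CPM in the lung libraries. Ccnb1, the cyclin that drives entry into mitosis, was at 131 and 166 against 17.2 and 15.5 CPM (3.18 ± 0.20, adjusted p = 5.8e-05), and Cdc20, which starts its destruction, at 134 and 115 against 18.3 and 14.3 CPM (2.94 ± 0.18). Cdkn2a, an inhibitor that accumulates in ageing cultures, was higher in the tail tip (11.3 and 9.29 against 44.3 and 40.2 CPM, -2.04 ± 0.17) and highest in the lung libraries (59.6 and 61.4 CPM). Its list, cell cycle inhibitors and p53 targets, leaned to cardiac cells instead. Of 30 tested members 12 were higher in cardiac cells and 3, among them Cdkn2a, in the tail tip (median 0.52). The list summed to 3291 and 4025 CPM in the cardiac and to 2381 and 2494 CPM in the tail tip libraries. Many promoters of mitotic genes carry the letters TTTGAA, the cell cycle homology element, close to the start. The window of Cdc20 (chr4:118437294-118437593, minus strand, GRCm38.p6, RefSeq) has 1 match, in capitals, 18 bases upstream of the start, and the window of Ccnb1 has none. On both strands these letters occur in 5878 of 32851 windows (17.89%).
Cdc20: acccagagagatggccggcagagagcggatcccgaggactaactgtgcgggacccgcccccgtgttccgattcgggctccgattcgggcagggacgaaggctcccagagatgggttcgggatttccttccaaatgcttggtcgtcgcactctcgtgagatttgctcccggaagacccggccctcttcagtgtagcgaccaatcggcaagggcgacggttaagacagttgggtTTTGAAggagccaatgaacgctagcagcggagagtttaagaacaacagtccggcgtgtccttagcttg

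Metabolic genes differed less than surface or secreted genes by the medians given above, and 4 lists with most of their calls in 1 direction are described first. In the synthesis of purines and pyrimidines, the bases of DNA and RNA, 16 of 29 genes were higher in cardiac cells and none in the tail tip (median 0.82). Rrm1, a subunit of ribonucleotide reductase, was at 426 and 316 against 94.9 and 96.6 CPM (1.94 ± 0.17, adjusted p = 0.0002), Umps at 129 and 101 against 37.1 and 38.7 CPM (1.59 ± 0.17) and Prps1 at 46.6 and 66.7 against 18.2 and 22.7 CPM. The salvage enzyme Aprt did not pass the test (77.1 and 72.3 against 89.0 and 80.6 CPM). The making of serine, glycine and one-carbon units, which feed nucleotide synthesis, had 14 of 21 members higher in cardiac cells and 1 in the tail tip (median 0.83). Phgdh, the first enzyme of serine synthesis, was at 474 and 326 against 95.0 and 99.8 CPM (2.03 ± 0.21, adjusted p = 0.00048), and Psat1, the second, at 194 and 212 against 58.3 and 59.2 CPM (1.79 ± 0.15). Tyms, which makes thymidylate, was at 69.6 and 72.1 against 16.5 and 17.3 CPM (2.07 ± 0.15). The exception was Aldh1l1, which removes folate-bound units (0.952 and 1.5 against 13.7 and 15.2 CPM, -3.57 ± 0.33). The cell cycle list moved with these genes, and its part was not tested. Among these, 7 nucleotide genes and 6 one-carbon genes were higher in cardiac cells without tail tip Ad-GFP, without tail tip Ad-Cre 7 one-carbon genes were, and without cardiac Ad-GFP 4 one-carbon genes were higher in the tail tip. Without cardiac Ad-Cre 2 nucleotide genes and without tail tip Ad-Cre 1 were higher in the tail tip.

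Glycolysis and sterol synthesis were higher in the tail tip. Of 24 genes of glycolysis and lactate handling 13 were higher there and none in cardiac cells (median -0.55). Pdk1, a kinase that inhibits pyruvate dehydrogenase, was at 3.29 and 5.53 against 48.4 and 46.8 CPM (-3.46 ± 0.26, adjusted p = 0.00012). The lactate exporter Slc16a3 was at 42.6 and 31.0 against 211 and 209 CPM (-2.53 ± 0.17) and the phosphofructokinase Pfkl at 72.6 and 51.8 against 219 and 236 CPM. The abundant enzyme Gapdh did not pass the test (1878 and 1641 against 1527 and 1571 CPM, adjusted p = 0.40). Ndufa4l2, a gene counted in the respiratory chain list that hypoxia induces in other cells, had 3056 reads in the tail tip against 1 in the cardiac libraries (2971, 532.8 to 117400). Hif1a, the oxygen-regulated factor that is known to act on several of these genes, was at 136 and 170 against 459 and 500 CPM (-1.65 ± 0.17). Its relative Epas1 was higher in cardiac cells at 43.8 and 57.3 against 7.76 and 6.97 CPM (2.75 ± 0.25). These are RNA levels, and the part of either factor in these differences was not tested. Of 26 sterol genes 15 were higher in the tail tip and 1 in cardiac cells (median -0.65). Lss was at 24.1 and 19.6 against 49.8 and 53.7 CPM (-1.25 ± 0.18) and Hmgcs1 at 76.0 and 66.7 against 147 and 153 CPM (-1.07 ± 0.15). Without tail tip Ad-GFP or tail tip Ad-Cre 7 glycolysis genes were higher in the tail tip, without tail tip Ad-Cre 6 sterol genes were, and without cardiac Ad-GFP 1 glycolysis gene was higher in cardiac cells. The 1 sterol gene higher in cardiac cells, Ggps1, lost its call without either tail tip library.

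**Figure D5:**
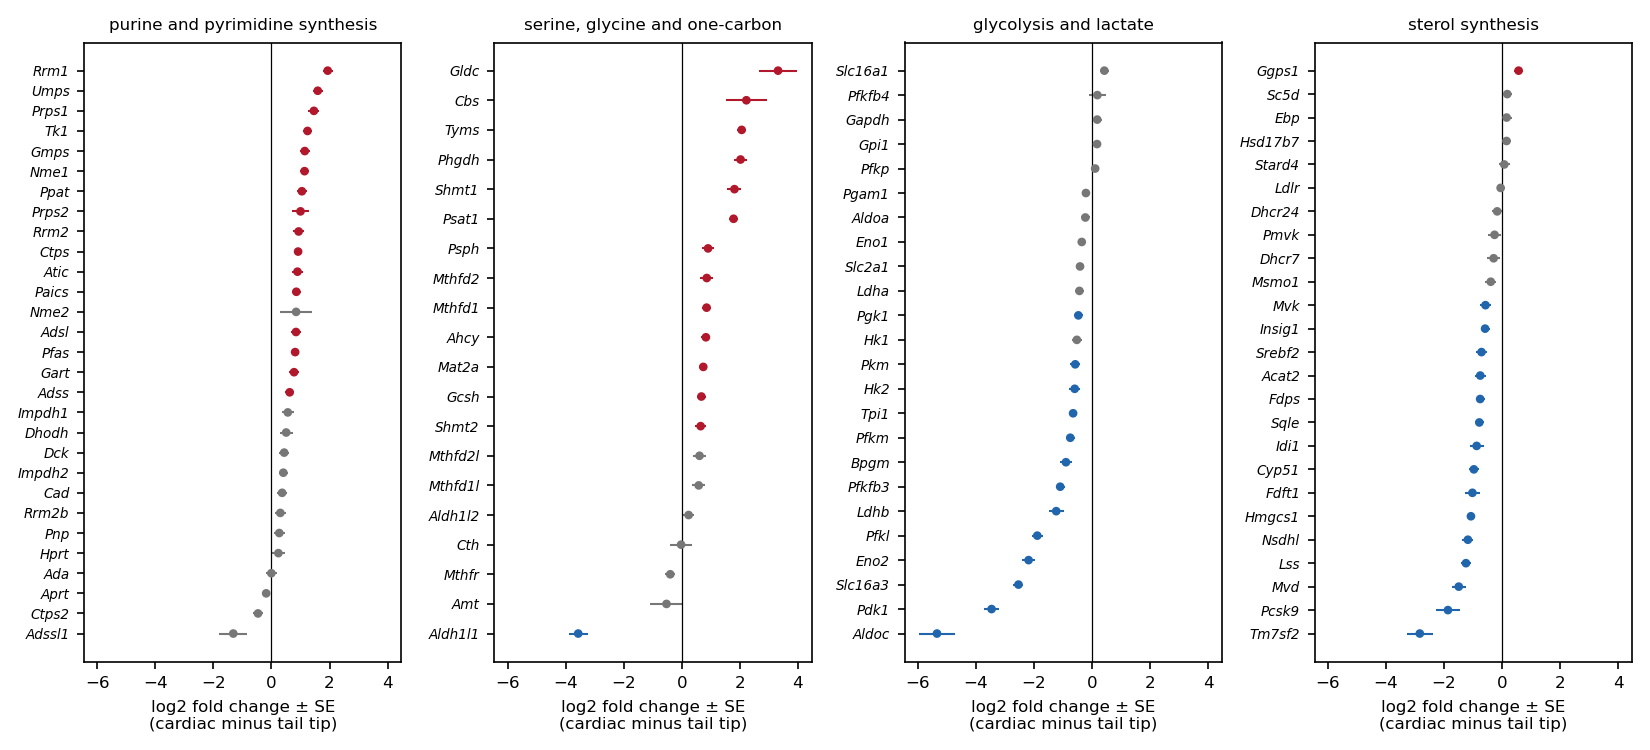
Points give the log2 fold change (cardiac minus tail tip) ± SE of tested members of 4 metabolic lists (2 members are not shown), red where called higher in cardiac, blue where called higher in tail tip and grey where not called. Nucleotide and one-carbon genes lie mostly to the right of 0, glycolysis and sterol genes mostly to the left.

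The respiratory chain differed between its nuclear and its mitochondrial part. Of 83 nuclear genes of the respiratory chain 14 (16.9%) were called, fewer than the 33.5% of all genes, with 3 higher in cardiac and 11 in the tail tip. Without cardiac Ad-Cre 33 and without either tail tip library 3 were higher in the tail tip, and 10 were higher in cardiac cells without cardiac Ad-GFP and none without either tail tip library. The 13 genes encoded in the mitochondrial genome counted 7 higher in cardiac cells and none in the tail tip. The subunit mt-Nd4 was at 1046 and 1411 against 531 and 626 CPM (1.08 ± 0.21, adjusted p = 0.0076). In all, 1.90 and 2.65% of cardiac reads and 1.15 and 1.31% of tail tip reads came from mitochondrial genes. Without either tail tip library 4 of the 13 were called higher in cardiac cells, and without cardiac Ad-Cre 3 were called higher in the tail tip. In the citric acid cycle Idh3a was higher in cardiac cells (145 and 151 against 66.5 and 69.6 CPM, 1.12 ± 0.15), and the cytosolic Idh1 in the tail tip (46.0 and 48.0 against 95.0 and 106 CPM, -1.10 ± 0.20).

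Single enzymes that make or break signalling lipids and hormones differed widely. Some of their lists had called shares near the 33.5% of all genes: 36.8% (prostanoids), 39.1% (retinoids) and 33.3% (cytochromes P450). The steroid hormone list, which holds Hsd11b1 and Cyp7b1, had a higher share of 56.25%. Of its 16 tested members 4 were higher in cardiac cells and 5 in the tail tip. The retinoid genes higher in the tail tip numbered 6, and 11 and 10 without cardiac Ad-GFP and without cardiac Ad-Cre, and the prostanoid genes higher there numbered 5, and 2 and 3 without tail tip Ad-GFP and without the Ad-Cre library of the tail tip. Ptgis, which makes prostacyclin, was at 431 and 250 against 3.21 and 4.41 CPM (6.44 ± 0.33, adjusted p = 3.3e-05). Hpgd, which breaks prostaglandins down, was at 1.11 and 0.850 against 33.6 and 35.8 CPM (-5.15 ± 0.29). Aldh1a2, which makes retinoic acid and marks the epicardium, was at 53.5 and 39.1 against 0.534 and 0.513 CPM (6.44 ± 0.32). The retinoic acid binding protein Crabp1 was higher in the tail tip, at 7.22 and 9.68 against 145 and 168 CPM (-4.21 ± 0.20). Hsd11b1, which regenerates active glucocorticoid, was at 15.6 and 20.3 against 0.911 and 0.996 CPM (4.22 ± 0.34), and Cyp7b1, an oxysterol hydroxylase, at 0.338 and 1.08 against 134 and 151 CPM. Dio3, which inactivates thyroid hormone, had 2290 reads in the tail tip against 2 in the cardiac libraries (1113, 307.8 to 9196). The hyaluronan synthase Has2 was at 11 and 5.89 against 144 and 129 CPM (-4.09 ± 0.23). Extracellular superoxide dismutase Sod3 was at 13.3 and 21.3 against 435 and 459 CPM (-4.75 ± 0.26), and Nos2, the inducible nitric oxide synthase, at 0 and 0.164 against 18.7 and 20.8 CPM.

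Transcription factors held the positional differences. In the Hox clusters 16 of 18 tested genes of groups 1 to 8 (23 in the table) and 11 of 11 of groups 9 to 13 (16 in the table) were higher in the tail tip, and none in cardiac cells. Groups 1 to 8 were highest in lung. Their tested genes summed to 5.3 and 4.3 CPM in the cardiac, 89.2 and 79.1 in the tail tip and 172 and 192 in the lung libraries. Groups 9 to 13 summed to 0.276 and 3.37, 294 and 279, and 86.8 and 97.6 CPM in the same order. The 5 untested genes of groups 9 to 13 were those of the HoxD cluster: each had at most 2 reads in a tail tip library, and Hoxd13 had 5 and 38 and Hoxd9 15 and 1 reads in the cardiac libraries. Hoxc12 had 0 reads in the cardiac libraries and 48.1 and 43.7 CPM in the tail tip (at least 965.6-fold higher), as had Hoxc10 (25.2 and 25.1 CPM, at least 529.1-fold), while Hoxb9 was at 0.123 and 0.229 against 93.7 and 89.2 CPM and also at 71.5 and 81.9 CPM in the lung libraries. All 6 tested GATA factors and FOG cofactors were higher in cardiac cells, and Gata6 was at 86.5 and 43.0 against 0.283 and 0.121 CPM (8.28 ± 0.55, adjusted p = 7.6e-05; 7.46 without cardiac Ad-GFP and 8.98 without cardiac Ad-Cre). The epicardial factor Tcf21 had 0 reads in the tail tip and 35.3 and 11.1 CPM in the cardiac libraries (at least 509.6-fold higher), and Hand2 had 0 reads against 26.3 and 12.1 CPM (at least 420.8-fold). Of 10 tested T-box factors 5 were higher in cardiac and 3 in tail tip fibroblasts. Tbx18 was at 68.8 and 75 against 24.0 and 26 CPM (1.52 ± 0.17), and Tbx15, a factor of the skin and limb, at 1.47 and 0.752 against 37.1 and 37.4 CPM. Mesothelial markers, which the epicardium shares, were higher in cardiac cells for 11 of 14 tested members, with sums of 134 and 242 against 189 and 150 CPM that overlapped. Igfbp5, which is on that list, supplied 180 and 139 CPM of the sums in the tail tip.

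Homeobox factors outside the Hox clusters counted 28 of 69 higher in the tail tip and 12 in cardiac cells. Tshz2 was at 0.338 and 0.916 against 87.2 and 87.2 CPM (adjusted p = 4e-05) and Meox2 at 0.338 and 0.687 against 34.9 and 39.8 CPM (-6.21 ± 0.39). Meis2, a Hox cofactor that is also used in heart development, was at 60.6 and 39.8 against 11.7 and 12.7 CPM (2.03 ± 0.25). The count higher in the tail tip was 18 without tail tip Ad-GFP, and that higher in cardiac cells was 19 without cardiac Ad-Cre. The other families named in this paragraph had calls in both directions. Ebf1, a factor of fat and stromal lineages, was at 30.0 and 29.0 against 171 and 158 CPM (-2.48 ± 0.19), and the aryl hydrocarbon receptor repressor Ahrr at 1.78 and 1.83 against 41.2 and 40.7 CPM (-4.50 ± 0.23). The nuclear factors Nfia and Nfib were higher in cardiac cells, at 46.4 and 66.5 against 8.80 and 9.54 CPM (2.61 ± 0.20) and at 246 and 158 against 36.3 and 39.2 CPM. Of 34 tested nuclear receptors 9 were higher in the tail tip and 4 in cardiac cells, a called share of 38.2% against 33.5% of all genes. The vitamin D receptor Vdr was at 8.05 and 14.1 against 93.1 and 108 CPM (-3.22 ± 0.22), and the thyroid hormone receptor Thra at 25.7 and 18.5 against 86.1 and 80.8 CPM. Of 37 tested AP-1, ATF and C/EBP factors 11 were higher in the tail tip and 5 in cardiac cells, a called share of 43.2%. Fosb, an immediate early AP-1 factor, was among those higher in cardiac cells, at 41.0 and 38.4 against 2.77 and 3.62 CPM (3.65 ± 0.21). The mechanosensitive cofactor Yap1 did not pass the test (207 and 197 against 194 and 190 CPM, 0.07 ± 0.14). Spi1, the PU.1 factor of macrophages, was higher in the tail tip (8.17 and 3.37 against 87.0 and 53.9 CPM), as the other macrophage markers were.

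Chromatin regulators were near the background, with 21 of 122 higher in cardiac and 25 in tail tip fibroblasts, a called share of 37.7% against 33.5% of all genes. Ezh2, the histone methyltransferase of the polycomb complex that silences Hox genes, was at 113 and 76.7 against 23.1 and 25.2 CPM (1.96 ± 0.20, adjusted p = 0.00045), and Hmga1 at 510 and 315 against 129 and 128 CPM (1.67 ± 0.24). The DNA demethylase Tet2 was higher in the tail tip at 13.2 and 21.5 against 65.5 and 63.3 CPM (-1.92 ± 0.23), and the remodeller Chd4 did not pass the test (530 and 559 against 566 and 568 CPM). Ezh2 and Hmga1 are also expressed with the cell cycle, and that part was not tested. Without tail tip Ad-GFP or tail tip Ad-Cre 11 chromatin genes were higher in cardiac cells and 10 and 11 in the tail tip, and without cardiac Ad-Cre 36 were higher in cardiac cells.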

How the data were processed

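Gene counts of 6 mouse fibroblast libraries were used. They are whole-number counts per gene, not normalised, in the table deposited by the authors. Genome build mm39 and STAR 2.0.7 are named in the submitters' processing notes without their roles; the counting tool, annotation and strand setting were not given in the sources used here. The reads of overlapping, antisense or near-identical genes cannot be told apart. Of 57180 gene identifiers 51884 carried a symbol in the file; 18143 passed edgeR's filterByExpr with a minimum count of 10. Totals lay between 26170316 and 33779069 reads. Intervals and limits from counts cover counting error only.

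An additive model of origin and virus was fitted to all 6 libraries with 2 residual degrees of freedom (edgeR 4.0.16, TMM scaling, robust quasi-likelihood F-test, R 4.3.3), cardiac minus tail tip, with Benjamini-Hochberg adjustment over all tested genes and a threshold of 0.05. Every adjusted p in the text is from this test, or, where a library is named as left out, from the same test without that library. Errors after ± are SE. Where an origin had 0 reads in both libraries, a lower bound against 3 counts over the group is given, and where it had 1 to 3 reads, the ratio with an exact conditional binomial 95% interval. Alternatives were DESeq2 size factors, library totals, no filter, DESeq2 1.42.0, the 4 libraries alone with and without virus, and each library left out.

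Lists, members and tests were chosen with earlier results of these data known. Named genes were taken from a rule: among called genes without overlap and above a minimum level, up to 8 per class and direction, 10 per direction over all genes and 3 per list and direction with the largest differences, up to 3 uncalled members per list with the highest level, and the sex-linked genes and markers. B2m, Ccl2, Ccl7, Cdh5, Cfd, Col12a1, Col4a2, Col6a1, Col6a2, Col6a3, Hif1a, Hmgcs1, Ifit3b, Isg15, Lamb1, Lamc1, Lox, Oas3, Pecam1, Pfkl, Psat1, Relb, Socs3 and Thbs2 were named after their values were seen. Of the interferon and cell cycle lists 30 of 40 and 29 of 37 members matched the RefSeq promoter table (GRCm38.p6) by symbol, and no share of matches over the lists was counted. The windows counted do not cover every chromosome. Some genes of the lists are counted but not reported by name here.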

Additional observations from a re-analysis of the deposited data

How the results depend on the processing

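No pairing by replicate number was possible because each combination of origin and virus was 1 library, so the groups shared fewer than 2 replicate numbers. Virus, which the 2 origins share, paired their libraries instead and was a term of the reported fit. The 4 libraries alone gave 6075 calls with this term and 5632 without it. The number of called genes lay between 5632 and 6916 under DESeq2 size factors, library totals, no filter, DESeq2 and the fits to the 4 libraries alone, with 51.6 to 57.9% of the calls higher in the tail tip over all alternatives against 53.7% in the reported fit. Leaving out 1 library at a time gave 3110 to 9205 called genes, 1324 to 4300 higher in cardiac and 1786 to 5067 higher in the tail tip. Without a tail tip library 49.71 and 52.76% of the reported calls were kept, and in every other alternative at least 88.55% were. A call shared with the reported fit had the opposite direction in none of these alternatives. With a library left out, its origin rests on 1 sample that is assumed to vary like the others. Of the values given for single genes, Col1a1 changed sign without cardiac Ad-GFP (-0.35, against 0.44 without cardiac Ad-Cre) and without tail tip Ad-Cre (-0.02), Eif2s3y without cardiac Ad-GFP or tail tip Ad-GFP (both 0.11, against -0.69 without tail tip Ad-Cre), and Hspa1b without cardiac Ad-GFP (-0.62, against 4.50 without cardiac Ad-Cre); the cause was not tested. Of 182 named genes that were called, 9 lost the call in any of 12 alternatives and none changed direction, and of 20 named genes that were not called 7 were called in at least 1. Depth limits statements on genes under about 3 reads a library, 0.0905 to 0.0981 CPM. The 2 libraries of an origin differ in virus, and origin cannot be told apart from whatever else differed between these cultures.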

Other observations

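The 2 origins also differed in genes that no comparison above describes. Heat shock chaperones, which refold damaged proteins, counted 10 of 16 higher in cardiac cells and none in the tail tip. Hsp90aa1 was at 2364 and 1698 CPM in the cardiac and at 672 and 688 CPM in the tail tip libraries (log2 fold change 1.56 ± 0.18, adjusted p = 0.00075), and Hspa4l at 132 and 88.8 against 32.5 and 35.6 CPM. The sum of the list was 14122 CPM in cardiac Ad-GFP and 7940 CPM in cardiac Ad-Cre, and 5532 and 5437 CPM in the tail tip. It was 13272 and 12911 CPM in the lung libraries, so a high level was not particular to cardiac cells. The stress-induced Hspa1b stood apart in 1 library, at 675 CPM in cardiac Ad-GFP against 17.0 CPM in cardiac Ad-Cre and 32.5 and 23.1 CPM in the tail tip, and did not pass the test (2.81 ± 1.60, adjusted p = 0.25; -0.62, adjusted p = 0.014, without cardiac Ad-GFP). There were 4 chaperones higher in cardiac cells without tail tip Ad-GFP, and without cardiac Ad-GFP 3 were higher in the tail tip. Genes of the myofibroblast state were split. Postn, a matrix protein of wound fibroblasts, was at 980 and 638 against 248 and 158 CPM (2.0 ± 0.21). Mylk, the myosin light chain kinase, was higher in the tail tip at 3.32 and 2.78 against 72.4 and 71.6 CPM (-4.56 ± 0.22). Flna, an actin crosslinker, did not pass the test (3098 and 2874 against 2478 and 2736 CPM).

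Among imprinted genes Peg10 was higher in cardiac cells at 138 and 114 against 13.1 and 15.5 CPM (3.14 ± 0.19, adjusted p = 5.4e-05). Xist, which is expressed from the inactive X chromosome, was at 692 and 863 CPM in the cardiac and at 1041 and 1065 CPM in the tail tip libraries. The Y-linked Ddx3y was at 25.7 and 18.4 and at 16 and 13.9 CPM in the same libraries, so female and male transcripts were both present in all 4 libraries and neither gene passed the test (adjusted p = 0.21 and 0.08; 0.0012 and 0.019 without cardiac Ad-Cre). The Y-linked Eif2s3y and Uty did not pass either (adjusted p = 0.59 and 0.11), and Kdm5d, at 2.70 and 1.60 against 6.13 and 6.49 CPM, did (adjusted p = 0.035; 0.14 without tail tip Ad-GFP and 0.48 without tail tip Ad-Cre). In the lung libraries Xist was at 1.06 and 0.428 CPM and Ddx3y at 0.0343 and 0.0389 CPM.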
